A study of Mus musculus with 9 samples.

Results

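This section describes 10 genes, Galnt6, Cysltr2, Mov10, Rhoc, Traf3, Myb, Trnt1, Nek9, Tmem163 and Tial1, among the 45808 genes counted in T cells from mouse tumours. They were selected on their measured counts: near 0 in every library from mice given anti-CTLA-4, present in every control library and in most libraries from mice given anti-PD-1. Those values chose the genes, so the contrast of anti-CTLA-4 with either other group is given as a description and was not used as a test. ICOS+ CD4 T cells had been sorted out of tumours of MC38, a transplanted colon carcinoma line, in C57BL/6J mice on day 12 after injection of the tumour cells. ICOS is a costimulatory receptor carried by activated T cells, and CTLA-4 and PD-1 are inhibitory receptors that checkpoint antibodies block. There were 3 groups of 3 mice with 1 library each: Control, anti-CTLA-4 and anti-PD-1. What the control mice received, the antibody clones and doses, and the numbers of sorted cells were not given in the sources used here. Cellular effects of the 2 antibodies were under study.

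The 10 genes share no single pathway. Galnt6 encodes an enzyme that starts mucin-type O-glycosylation, and Cysltr2 a G protein-coupled receptor for cysteinyl leukotrienes. Rhoc encodes a small GTPase that controls actin and contractility, and Traf3 an adaptor that restrains noncanonical NF-kappaB signalling downstream of costimulatory receptors. Myb encodes a transcription factor needed in T cell development and in the effector programme of regulatory T cells. Mov10 (an RNA helicase tied to RNA silencing), Tial1 (an RNA-binding protein of stress granules) and Trnt1 (the enzyme that adds the CCA end to transfer RNA) act on RNA, Nek9 encodes a kinase of spindle assembly, and Tmem163 a zinc transporter.

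Start regions of 3 of the genes are shown because the 10 differ in kind there, from CpG-rich to CpG-poor. RefSeq promoter sequences (GRCm38.p6, 250 bases before to 50 after the start) were matched for 9 of the 10. Galnt6, Mov10 and Tial1 had 2 promoters each, of which 1 was used. Capitals mark GC boxes (GGGCGG) and CCAAT boxes (CCAAT), both searched on both strands, and no matches overlap in the sequences shown. Galnt6 lies at chr15:100729327-100729626 on the minus strand, Traf3 at chr12:111166120-111166419 on the plus strand and Cysltr2 at chr14:73049065-73049364 on the minus strand.
Galnt6: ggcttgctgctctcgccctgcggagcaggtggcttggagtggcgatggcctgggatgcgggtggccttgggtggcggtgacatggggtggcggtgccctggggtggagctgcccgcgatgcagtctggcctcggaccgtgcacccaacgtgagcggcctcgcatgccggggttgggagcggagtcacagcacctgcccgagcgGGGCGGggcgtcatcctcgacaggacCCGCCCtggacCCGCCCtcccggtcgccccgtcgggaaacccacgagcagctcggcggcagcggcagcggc
Traf3: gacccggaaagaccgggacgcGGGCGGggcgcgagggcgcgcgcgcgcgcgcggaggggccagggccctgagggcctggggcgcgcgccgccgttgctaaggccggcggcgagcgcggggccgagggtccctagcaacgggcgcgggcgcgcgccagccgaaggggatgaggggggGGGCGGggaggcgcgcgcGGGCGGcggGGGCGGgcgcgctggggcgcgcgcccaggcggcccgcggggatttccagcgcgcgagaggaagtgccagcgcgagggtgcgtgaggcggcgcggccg
Cysltr2: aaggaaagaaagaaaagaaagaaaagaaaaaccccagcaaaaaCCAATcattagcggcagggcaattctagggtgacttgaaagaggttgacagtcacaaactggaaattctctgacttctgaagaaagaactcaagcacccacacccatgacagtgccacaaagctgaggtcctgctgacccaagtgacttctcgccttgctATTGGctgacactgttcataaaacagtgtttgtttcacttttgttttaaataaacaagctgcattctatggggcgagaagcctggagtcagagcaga
The Traf3 stretch held 59 CpG dinucleotides, the Galnt6 stretch 31 and the Cysltr2 stretch 3. The median over the 9 matched genes was 25, against 7 over all 32851 promoters of the same length. The 32851 were not limited to genes detected in these libraries, whereas the 9 were chosen as present in controls. Values over detected genes alone were not computed. A GC box was found in 5 of the 9 (35.7% of all promoters), a CCAAT box in 2 (37.4%), the ETS core CCGGAAG in 1 (8.86%) and the MYB core AACNG in 7 (80.3%), all searched on both strands. None of the 9 held a TATA box, TATAAA (13.6%).

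Libraries held 25530333 to 41508589 gene counts. Genes at 5 or more counts per 1000000 gene counts (CPM) numbered 6051 to 6309 in the controls, 5382, 2662 and 5124 in the anti-CTLA-4 group (replicates 1 to 3), and 5496, 4209 and 5878 in the anti-PD-1 group. Of 11 markers of CD4 T cells none was at 0 counts in any library, and their summed level was 6759 to 8740 CPM in 8 libraries and 3630 CPM in anti-CTLA-4 replicate 2. In that library 15 macrophage and monocyte markers summed to 7114 CPM (251 to 1280 CPM elsewhere) and 7 fibroblast markers to 1621 CPM (90.0 to 674 CPM elsewhere). Single CD4 markers went both ways there. Icos (507 CPM), Ptprc (501 CPM), Cd4 (24.5 CPM), Cd3e (0.590 CPM) and Trbc2 (0.450 CPM) were at their lowest of the 9 libraries. Cd3d (696 CPM), Cd3g (649 CPM) and Trac (632 CPM) were at their highest. Icos, the gene of the sorting marker, had 1706 to 2876 CPM elsewhere. B cell markers (5 genes) reached at most 63.8 CPM, CD8 markers (2) at most 125 CPM, epithelial markers (5) at most 57.7 CPM, dendritic cell markers (7) 7.27 to 250 CPM, and all 4 NK cell markers were at 0 in every library. The CD4 markers summed to 7141 and 6908 CPM in anti-CTLA-4 replicates 1 and 3. The part of other cells in the low values below was not tested. In sorted bulk RNA, fewer cells that express a gene and less RNA per cell cannot be told apart.

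With anti-CTLA-4, each of the 10 genes had 0 to 9 counts per library, and 22 of the 30 values were 3 counts or fewer. The highest of the 30 was 0.275 CPM, for Tmem163 in replicate 3, and the lowest control value of any of the 10 was 13.8 CPM, for Trnt1. Summed over the 10 genes, the level was 772, 957 and 679 CPM in Control replicates 1, 2 and 3, 1.12, 0.590 and 0.949 CPM for the anti-CTLA-4 group, and 1392, 1259 and 1234 CPM for the anti-PD-1 group. A count of 3 equals 0.0723 to 0.118 CPM, so most anti-CTLA-4 values lay at or near the limit that a count of 0 allows. The reads carry no molecular identifiers, and this limit covers counting error only. The residual counts in an anti-CTLA-4 library never exceeded 0.0396% of the same gene's counts summed over the 6 other libraries.

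**Figure D1:**
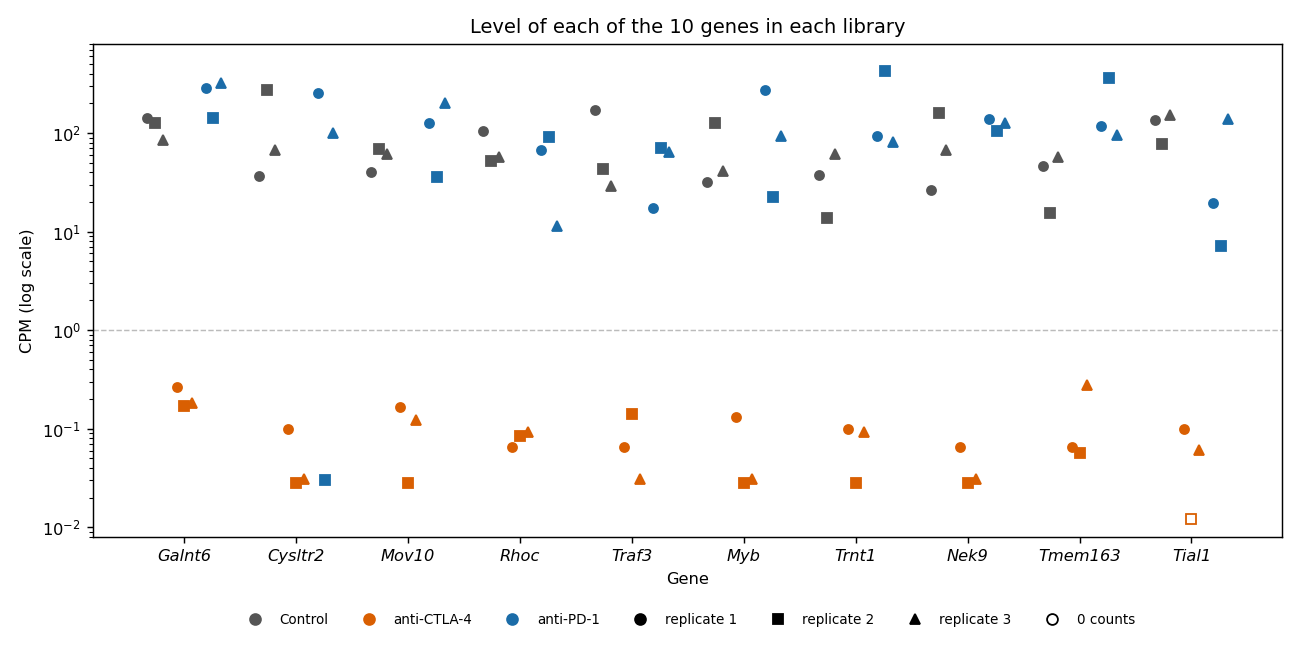
CPM of each of the 10 genes (log axis) in the 9 libraries, 1 point per mouse; colour gives the group, shape the replicate, the dashed line 1 CPM, and an open point 0 counts drawn at the foot of the axis. Every anti-CTLA-4 point lies at or below 0.275 CPM, and of the points of the other groups only Cysltr2 in anti-PD-1 replicate 2, at 0.0302 CPM, lies below 1 CPM.

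For all 10 genes the anti-CTLA-4 libraries lay below every control library, where 10.4% of the 7858 genes tested did so and 1.57% lay above; the choice of genes fixes this count. Against anti-PD-1 it held for 9 of 10, where 6.95% of genes tested did so, 2.81% lay above and 9.76% did either, with Cysltr2 the exception. In the model across all genes (edgeR's quasi-likelihood test, Benjamini-Hochberg adjustment), 0 of the 10 were called lower with anti-CTLA-4 than in controls, as were 0% of all genes tested, although each of the 10 had an unadjusted p below 0.05 (11.3% of genes tested) and DESeq2 called all 10 lower (7.21% of the 5575 genes to which it gave an adjusted p lower, 10.3% in either direction). The same 3 counts, 0, 10 and 10, were obtained against anti-PD-1, where edgeR called 0.0127% of genes lower and 0.814% higher, 14.1% had an unadjusted p below 0.05, and DESeq2 called 8.84% lower and 15.3% in either direction. Nothing is read from these counts, since the contrast chose the genes.

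Galnt6 (ENSMUSG00000037280, GRCm38 chromosome 15, 100691813 to 100729376), the glycosylation enzyme gene, had the smallest fold range in controls of the 10. Its level was 143, 127 and 85.8 CPM in Control replicates 1, 2 and 3, 0.263, 0.169 and 0.184 CPM under anti-CTLA-4, and 285, 143 and 322 CPM under anti-PD-1. Each anti-PD-1 value was above each control value, the nearest pair being 143.4 and 142.6 CPM. Cysltr2 (ENSMUSG00000033470, chromosome 14, 73025603 to 73049114) was read at 36.7, 274 and 66.9 CPM in controls, 0.0985, 0.0281 and 0.0306 CPM under anti-CTLA-4, and 256, 0.0302 and 99.8 CPM under anti-PD-1. It was the only one of the 10 that fell below 1 CPM in an anti-PD-1 library, replicate 2, where it had 1 count. Its controls spanned a 7.48-fold range, against 1.66-fold for Galnt6.

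The signalling genes behind the receptors gave the following values. Traf3 (ENSMUSG00000021277, chromosome 12, 111166370 to 111267153) stood at 170, 43.4 and 28.9 CPM in controls, at 0.0656, 0.141 and 0.0306 CPM under anti-CTLA-4, then at 17.3, 70.5 and 64.1 CPM under anti-PD-1. Control replicate 1 was its highest library, and the control and anti-PD-1 ranges overlapped. For Rhoc (ENSMUSG00000002233, chromosome 3, 104788375 to 104794459) the control values were 104, 51.7 and 56.6 CPM, the anti-CTLA-4 values 0.0656, 0.0843 and 0.0918 CPM and the anti-PD-1 values 66.4, 91.2 and 11.5 CPM. Anti-PD-1 replicate 3 was the lowest for Rhoc outside the anti-CTLA-4 group.

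Myb (ENSMUSG00000019982, chromosome 10, 21124935 to 21160984), the only sequence-specific transcription factor of the 10, stood at 32.1, 127 and 40.7 CPM in controls, at 0.131, 0.0281 and 0.0306 CPM under anti-CTLA-4, then at 271, 22.2 and 92.7 CPM under anti-PD-1. Anti-PD-1 replicate 1 was its highest library and anti-PD-1 replicate 2 lay below every control. Nek9 (ENSMUSG00000034290, chromosome 12, 85299514 to 85339362), the mitotic kinase, had 26.3, 158 and 66.6 CPM in controls, 0.0656, 0.0281 and 0.0306 CPM under anti-CTLA-4, and 138, 104 and 126 CPM under anti-PD-1. Its anti-PD-1 libraries were the most even of any of the 10 genes, with a 1.33-fold range that lay inside that of the controls.

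Of the genes that act on RNA, Tial1 (ENSMUSG00000030846, chromosome 7, 128439777 to 128461717) was the most abundant in controls, at 137, 77.4 and 153 CPM. It had 0.0985 and 0.0612 CPM in anti-CTLA-4 replicates 1 and 3 and 0 counts in replicate 2, where the limit of 3 counts is 0.0843 CPM. With anti-PD-1 it was read at 19.5, 7.07 and 138 CPM, so that 2 of the 3 libraries lay below every control. Mov10 (ENSMUSG00000002227, chromosome 3, 104794836 to 104818563) stood at 40.2, 69.1 and 61.3 CPM in controls, at 0.164, 0.0281 and 0.122 CPM under anti-CTLA-4, then at 126, 35.7 and 203 CPM under anti-PD-1. The anti-PD-1 values of Mov10 lay on both sides of the control range. Trnt1 (ENSMUSG00000013736, chromosome 6, 106769120 to 106782474) was read at 37.6, 13.8 and 61.6 CPM in controls, 0.0985, 0.0281 and 0.0918 CPM under anti-CTLA-4 and 93.8, 423 and 80.9 CPM under anti-PD-1. All anti-PD-1 values of Trnt1 exceeded all control values, and replicate 2 was the highest of them.

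Tmem163 (ENSMUSG00000026347, chromosome 1, 127486546 to 127679548), the zinc transporter gene, showed the same order of libraries as Trnt1 outside the anti-CTLA-4 group. It stood at 46.7, 15.3 and 57.3 CPM in controls, at 0.0656, 0.0562 and 0.275 CPM under anti-CTLA-4, then at 118, 361 and 95.8 CPM under anti-PD-1. Both genes were highest in anti-PD-1 replicate 2 and lowest, outside anti-CTLA-4, in Control replicate 2. Over the 6 control and anti-PD-1 libraries their log2(CPM + 0.5) had a Pearson r of 0.99, the highest of the 45 pairs of the 10 genes, while Mov10 and Rhoc had the lowest, -0.84. The median r of the 45 pairs was -0.02 and 22 were above 0. All pairs share the same 6 libraries, and these values are a description. Over these 6 libraries the 10 genes did not all go up and down together. The r of pairs among all genes tested was not computed, so no comparison with other genes is drawn.

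Pooled over the 3 libraries of a group, the control level exceeded the anti-CTLA-4 level 588-fold for Galnt6 (95% exact binomial interval 381 to 964, counting error only), from 20 counts with anti-CTLA-4 and 12921 in controls. The smallest ratio was that of Tmem163, 313-fold (183 to 588), and the largest that of Tial1, 2470-fold (1058 to 7608), from 5 counts with anti-CTLA-4. These ratios are set mainly by 4 to 20 residual counts per gene. Their intervals leave out the spread between mice and that of amplification, so the ratios do not rank the genes.

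Per length, as CPM per kilobase of annotated exon, the order of control levels was Cysltr2 (43.9 ± 45.1, SD, n = 3), Rhoc (43.7 ± 17.7), Galnt6 (30.6 ± 7.56), Tial1 (17.7 ± 5.76), Nek9 (15.5 ± 12.5), Traf3 (10.98 ± 10.5), Mov10 (10.1 ± 2.67), Tmem163 (9.27 ± 5.09), Trnt1 (8.54 ± 5.42) and Myb (7.46 ± 5.89). No 2 neighbours in this order other than Galnt6 and Tial1 differed by more than the larger of their SDs.

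Anti-PD-1 against controls is the contrast the choice used least, although presence in both groups was asked for. No member was called (0 of 10, against 0.0382% of genes tested higher, 0.0382% lower and 0.0764% in all), none had an unadjusted p below 0.05 (6.01% of genes tested), and DESeq2 called 0 (5.22% of genes lower, 7.55% in either direction). The mean was higher with anti-PD-1 for 6 of the 10. Groups did not overlap for 3 genes, Galnt6, Trnt1 and Tmem163, all higher with anti-PD-1, where 3.45% of genes tested did so in that direction, and for 0 genes lower (7.33%). The largest fitted log2 fold changes (TMM-scaled, with anti-CTLA-4 libraries in the shared estimate of spread) were those of Trnt1, 2.82 (SE 2.27), and Tmem163, 2.65 (SE 2.29), and the lowest was that of Tial1, -1.08 (SE 2.62), each with an edgeR adjusted p of 0.9998. Without anti-PD-1 replicate 2, the library in which Trnt1 was highest, its log2 fold change was 1.27. Standard errors of the 10 genes ran from 1.93 to 2.81 on the log2 scale, so differences of that size were not detectable with these libraries.

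The choice of genes was set against the whole table with a numerical form of the rule: each anti-CTLA-4 library below 1 CPM, at least 5 CPM in all 3 controls and at least 5 CPM in 2 or more anti-PD-1 libraries. It was met by 82 genes, 2.27% of the 3608 genes at 5 CPM in all controls, and all 10 described here were among them, ranking from 2 (Cysltr2) to 58 (Trnt1) by control mean. With all 3 anti-PD-1 libraries required at 5 CPM, 22 genes were left, of which 9 were among the 10, Cysltr2 being the one not met. With the roles of the 2 antibodies exchanged, 29 genes (0.804%) were near 0 in all anti-PD-1 libraries and present in the others, and 3 of 2545 genes (0.118%) were near 0 in all controls and present in the others. Without the condition on the third group, 176 genes (4.88% of the 3608) were near 0 in all anti-CTLA-4 libraries and 103 (2.85%) in all anti-PD-1 libraries, and 22 of the 2545 (0.864%) in all controls. Of the 3608 genes, 15.5%, 49.6% and 17.8% were below 1 CPM in the anti-CTLA-4 group (replicates 1 to 3), and 14.9%, 27.8% and 10.3% in the anti-PD-1 group. The part of lower detection in the 82 genes was not tested. Leaving out anti-CTLA-4 replicate 2 raised the 82 to 107, leaving out replicate 1 to 279 and replicate 3 to 218. Leaving out a library only removes a condition, so the 10 genes met the rule each time by construction.

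**Figure D2:**
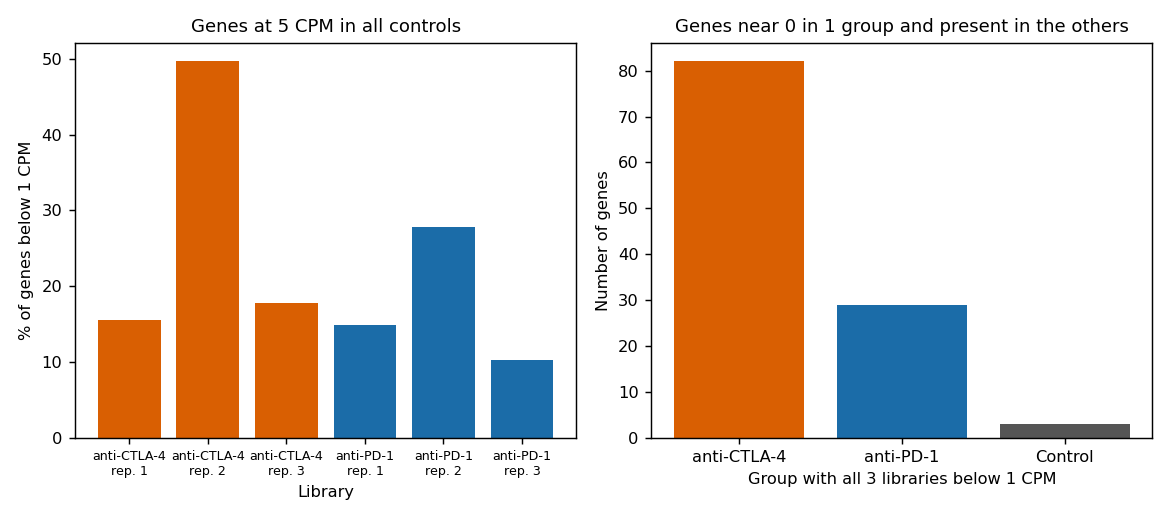
Left, the percent of the 3608 genes at 5 CPM in all controls that were below 1 CPM in each treated library; right, the number of genes below 1 CPM in all 3 libraries of 1 group and present in the other groups. Anti-CTLA-4 replicate 2 stands highest on the left at 49.6%, and the counts on the right are 82, 29 and 3.

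Position gave 1 pair. Mov10 and Rhoc are neighbours on chromosome 3, transcribed towards each other with 376 bases between their annotated ends, and their exons do not overlap. Both were near 0 in all anti-CTLA-4 libraries, while their values in the other 6 libraries went in opposite directions. Capza1, which encodes an actin capping protein and lies 4215 bases beyond Mov10, stood at 205, 0.534 and 91.9 CPM under anti-CTLA-4. Of the 18 other nearest protein-coding neighbours of the 10 genes, 7 were at 5 CPM in all controls, and 0 of these 7 were near 0 in all anti-CTLA-4 libraries (4.88% of all genes at 5 CPM in the controls were). Exons of Galnt6 overlap an opposite-strand gene over 11.4% of their length (Galnt6os), Myb over 6.26%, Tmem163 over 3.54% (Mgat5) and Trnt1 over 3.26% (Crbn), and those of the other 6 genes overlap none. The deposited table names the first strand in its title; whether the kit marks strand was not stated, so reads of such partners may not be separable.

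Genes related to the 10 by family or pathway were counted from 10 lists, 154 genes in the table apart from the 10 themselves. Of these, 66 were at 5 CPM in all controls, and 28 of the 66 (42.4%) stayed at 5 CPM in all anti-CTLA-4 libraries, against 37.0% of all such genes. Near 0 in all anti-CTLA-4 libraries were 3 of the 66 (4.55%, against 4.88% of all such genes): Gcnt1 (O-glycan branching), Clp1 (RNA end processing) and Slc39a6 (a zinc importer). Of the 106 related genes tested, edgeR called 0 in either direction for anti-PD-1 against controls (4 with an unadjusted p below 0.05) and 0 for anti-CTLA-4 against controls (7 unadjusted), where it called 0.0764% and 0.369% of all genes. DESeq2, which gave 79 of the 106 an adjusted p, called 1 (1.27%, against 7.55% of all genes with one) and 6 (7.59%, against 10.3%). For anti-CTLA-4 against anti-PD-1, edgeR called 1 higher and 0 lower, where it called 0.827% of all genes. An unadjusted p below 0.05 was found for 14 of the 106, where 14.1% of all genes had one. DESeq2 called 13 of the 79 (16.5%, against 15.3% of all genes). Both antibodies were compared with the same controls. The median fitted log2 change of the related genes with anti-CTLA-4 was -0.03, against 0.01 over all genes tested.

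The 1 gene edgeR called was Plk1, the mitotic kinase upstream of Nek9, and the call depended on single libraries. It stood at 12.6, 404 and 0.0306 CPM under anti-CTLA-4, at 0, 0.0604 and 0.0584 CPM under anti-PD-1 and at 0.0723, 1.25 and 0.0559 CPM in controls (edgeR adjusted p = 0.00652 against anti-PD-1). DESeq2 gave it no adjusted p. The fitted log2 fold change was 12.90. Without anti-CTLA-4 replicate 2 it was 6.99, with an edgeR adjusted p of 0.544. Without anti-PD-1 replicate 1 or 3 it was 12.21 and 12.90, with edgeR adjusted p of 0.148 and 0.104. Over all alternatives that gave a value the adjusted p ranged from 0.00385 to 0.841. In the same NEK list, Nek7, a kinase that Nek9 activates, was at 65.8, 0.0281 and 214 CPM under anti-CTLA-4, then at 78.7, 127 and 56.5 CPM in controls, so Nek7 was near 0 in replicate 2 alone. The other Nek9 substrate, Nek6, was above 1 CPM only in Control replicate 1, at 17.4 CPM. Of the 6 genes of this list tested, none other than Plk1 was called by edgeR. DESeq2 gave 4 of the 6 an adjusted p and called 0, against 7.55% to 15.3% of all genes, depending on the contrast.

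Of the 2 closest relatives of Rhoc, 1 was detected. Rhoa, the GTPase nearest to Rhoc in sequence and function, stood at 470, 387 and 393 CPM in controls and at 143, 472 and 189 CPM under anti-CTLA-4 (edgeR adjusted p = 1), and at 395, 651 and 719 CPM under anti-PD-1. Per kilobase, Rhoa was at 55.6 ± 6.15 in controls and 35.7 ± 23.8 with anti-CTLA-4, while Rhoc was at 43.7 ± 17.7 and 0.0498 ± 0.00834 (SD, n = 3). Rhob was at 0 counts in every library. Alignments that were not unique are listed apart from the genes in the deposited table, so genes with near-identical copies may read low.

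Among TRAF adaptors, Traf1 stood at 251, 444.5 and 541 CPM in controls and at 602, 1.83 and 734 CPM under anti-CTLA-4, high in the 2 libraries other than replicate 2. Traf5 showed the same split, with 53.2, 0.0562 and 23.3 CPM against 23.6, 82.9 and 62.6 CPM in controls. Traf2, which acts with Traf3 to recruit the ligases Birc2 and Birc3, was at most 16.8 CPM and reached 1 CPM in 4 of 9 libraries. Of the 12 tested genes of this list edgeR called 0, against 0.0764% to 0.827% of all genes, depending on the contrast. DESeq2 gave 10 of the 12 an adjusted p and called 0, against 7.55% to 15.3% of all genes. Among the 15 genes of this list in the table, 9 were at 5 CPM in all controls. Of the 9, 1 (11.1%) stayed there in all anti-CTLA-4 libraries, against 37.0% of all such genes. None of the 9 was near 0 in all of these libraries, against 4.88% of all such genes. Traf7 was near 0 in anti-CTLA-4 replicates 1 and 3, at 0.0656 and 0.122 CPM, and stood at 79.7 CPM in replicate 2.

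For Tial1, the paralogue Tia1 was also patchy. It stood at 138, 41.1 and 55.7 CPM in controls, at 0, 0.112 and 87.1 CPM under anti-CTLA-4, then at 107, 0.0302 and 18.9 CPM under anti-PD-1. Anti-CTLA-4 replicates 1 and 2 were thus near 0 for both paralogues, and replicate 3 for Tial1 alone. Of 14 tested genes that bind AU-rich RNA or build stress granules, edgeR called 0. DESeq2 gave 11 of the 14 an adjusted p. For anti-CTLA-4 against anti-PD-1 it called Atxn2 higher (adjusted p = 5.14e-06) and Eif2ak2 lower (0.00964), 18.2% against 15.3% of all genes. For anti-PD-1 and for anti-CTLA-4 against controls it called 0, against 7.55% and 10.3% of all genes. In this list 7 of the 13 at 5 CPM in all controls (53.8%, against 37.0% of all such genes) stayed there with anti-CTLA-4. Among them was Pabpc1, at 1059, 1351 and 855 CPM. Ago2, the slicer of RNA-induced silencing, is in the RNA silencing list around Mov10. It stood at 948, 698 and 660 CPM in controls and 1105, 437 and 425 CPM under anti-CTLA-4. Of the 10 genes of that list at 5 CPM in all controls, 6 stayed there with anti-CTLA-4 (60.0%, against 37.0%).

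**Figure D3:**
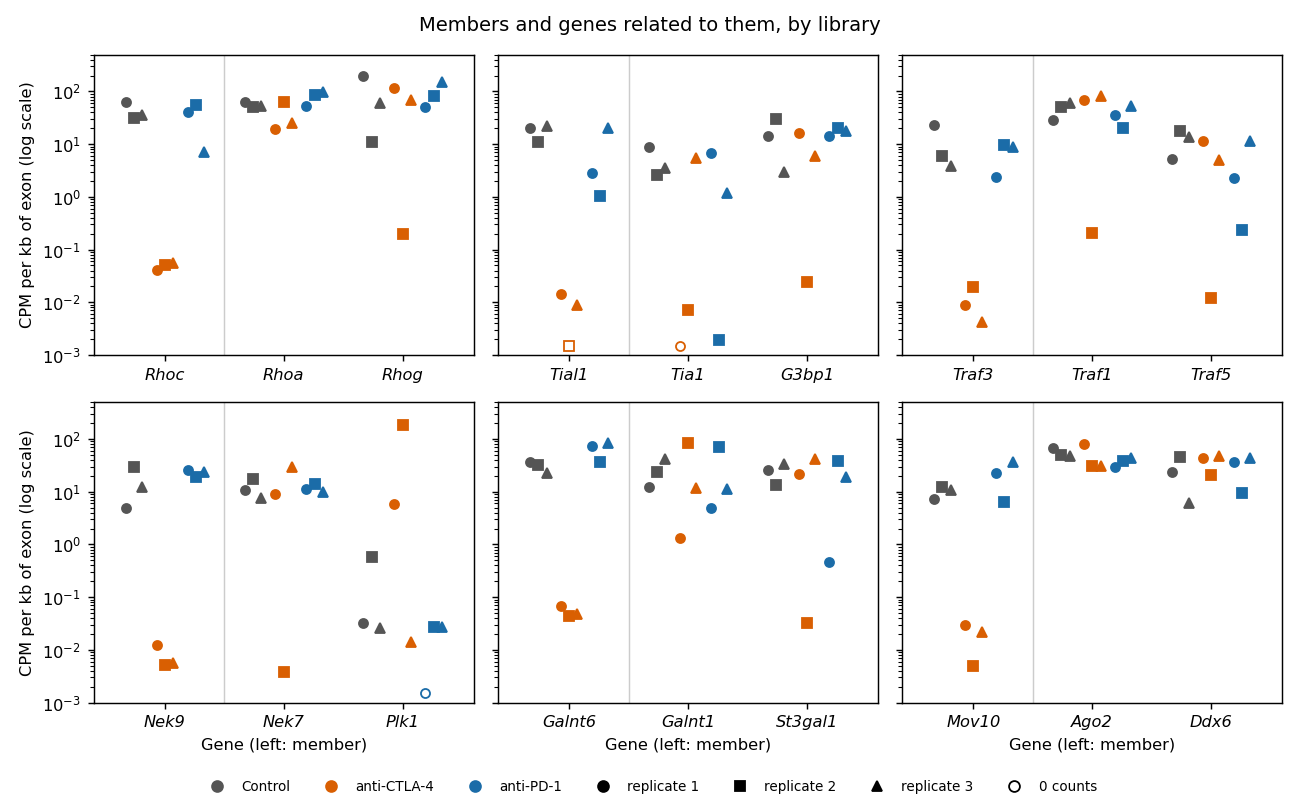
CPM per kilobase of exon (log axis) in the 9 libraries for 6 of the genes, left in each panel, and 2 related genes each; colour gives the group, shape the replicate, and an open point 0 counts drawn at the foot of the axis. Rhoc, Tial1, Traf3, Nek9, Galnt6 and Mov10 are low in all 3 anti-CTLA-4 libraries. Rhog, Traf1, Traf5, Nek7, St3gal1 and G3bp1 are low there only in replicate 2, and Rhoa, Ago2 and Ddx6 in none. Tia1 is near 0 there in replicates 1 and 2, and Galnt1 is at its lowest in replicate 1. Plk1 is near 0 in replicate 3 and low in the other groups. Rhog, G3bp1, St3gal1 and Ddx6 were chosen after their values were seen.

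Of the 13 GalNAc transferase genes listed, Galnt6 included, only Galnt6 and Galnt1 were at 5 CPM in all controls. Galnt1 stood at 67.1, 128 and 229 CPM in controls and at 7.32, 463 and 65.3 CPM under anti-CTLA-4, and the edgeR adjusted p was 0.718. Galnt2 was at 0 counts in every library and Galnt3 in all but anti-PD-1 replicate 1, at 32.2 CPM. Gcnt1, which branches the core structure built on the sugar that Galnt6 adds, stood at 75.6, 26.5 and 5.42 CPM in controls and at 0.0328, 0.0281 and 0.0306 CPM under anti-CTLA-4, 1 count in each library. Against controls its adjusted p was 0.435 with edgeR and 0.00688 with DESeq2. Cysltr1, the other cysteinyl leukotriene receptor, had its highest value in an anti-CTLA-4 library. It stood at 0, 1.74 and 0 CPM in controls, at 40.1, 0.0281 and 6.31 CPM under anti-CTLA-4, then at 0 in all 3 anti-PD-1 libraries. With edgeR its adjusted p was 0.766 against controls and 0.330 against anti-PD-1, and DESeq2 called it higher in the latter (adjusted p = 0.0239).

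The closest relatives of Myb, Mybl1 and Mybl2, were below 1 CPM in most libraries. Mybl1 reached 1 CPM in 1 library, anti-CTLA-4 replicate 1, at 7.81 CPM, and Mybl2, a cell cycle factor, in Control replicate 2 at 37.5 CPM and in anti-CTLA-4 replicate 1 at 100 CPM. Dmtf1, in the same list, stood at 172, 74.0 and 213 CPM in controls. It had 257, 0.366 and 490 CPM under anti-CTLA-4, and 210, 399 and 243 CPM under anti-PD-1. The coactivators that Myb binds were abundant, with Ep300 at 818, 291 and 332 CPM under anti-CTLA-4 and 584, 1217 and 483 CPM in controls. Of the 11 tested genes of the list, edgeR called 0. DESeq2 gave 7 of the 11 an adjusted p and called 0, against 7.55% to 15.3% of all genes, depending on the contrast. Of 10 tested genes of transfer RNA maturation around Trnt1, edgeR called 0, and 2 were at 5 CPM in all controls, Nsun2 and Clp1. DESeq2 gave 7 of the 10 an adjusted p. For anti-PD-1 against controls it called Pop1 lower (adjusted p = 1.29e-11, against 0.823 with edgeR), 14.3% against 7.55% of all genes. For anti-CTLA-4 against anti-PD-1 it called Pop1 and Trmt1 higher and Pus1 lower (42.9%, against 15.3%). For anti-CTLA-4 against controls it called 0 (10.3% of all genes). Pop1 stood at 43.0, 51.8 and 0 CPM in controls and at 0 CPM in all 3 anti-PD-1 libraries. With anti-CTLA-4, Pop1 was above 1 CPM only in replicate 3, at 17.2 CPM. Of 16 tested genes of zinc transport and binding edgeR called 0. DESeq2 gave 13 of the 16 an adjusted p. It called Slc30a1, Slc30a6, Slc30a7 and Slc39a6 lower for anti-CTLA-4 against controls (30.8%, against 10.3% of all genes in either direction). For anti-CTLA-4 against anti-PD-1 it called Slc30a1, Slc30a7 and Slc39a10 lower (23.1%, against 15.3%). For anti-PD-1 against controls it called 0 (7.55% of all genes). Slc30a1, an exporter of zinc, had 0 counts throughout the anti-CTLA-4 group but also in Control replicate 2 and in anti-PD-1 replicates 2 and 3. The zinc-binding metallothionein gene Mt1 stood at 139, 0.253 and 65.0 CPM under anti-CTLA-4, then at 519, 37.2 and 17.6 CPM in controls.

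The genes most like the 10 were sought by the Pearson r of log2(CPM + 0.5) with the mean profile of the 10 over the 9 libraries, among 7336 other tested genes (median r 0.18). The highest were Srgap3 (0.98), Ccr1 (0.97), Ccl4 (0.97), Zwint (0.97), Nsun4 (0.97), Narf (0.96), Eif4a3 (0.95) and C2cd5 (0.95). Since the mean profile is set by the anti-CTLA-4 libraries, this r finds genes that are low in them. Srgap3 stood at 35.1, 82.8 and 160 CPM in controls, at most 0.184 CPM under anti-CTLA-4, and at 88.8, 38.1 and 47.0 CPM under anti-PD-1. Ccr1, a chemokine receptor, had the highest control mean of the 82 genes, 146 ± 64.3 CPM (SD, n = 3), with 163 ± 94.9 CPM under anti-PD-1 and at most 0.197 CPM under anti-CTLA-4. Ccl4, a chemokine, had 120 ± 65.1 and 139 ± 88.1 CPM with a highest anti-CTLA-4 value of 0.0656 CPM, and Zwint, a kinetochore gene, 118 ± 97.9 and 194 ± 135 CPM with a highest of 0.131 CPM. Narf stood at 41.6, 21.0 and 23.0 CPM in controls, at most 0.0843 CPM under anti-CTLA-4, and at 233, 73.4 and 42.6 CPM under anti-PD-1. Eif4a3, a helicase of the exon junction complex, and C2cd5 missed the limit of 1 CPM in 1 anti-CTLA-4 library each, at 1.97 CPM in replicate 1 and 2.88 CPM in replicate 3, and are the 2 of the 8 that did not meet the numerical rule. An r above 0.9 was found for 21 genes.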

How the data were processed

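RNA of 9 libraries, 1 per mouse, was measured by sequencing 76-nt pairs. Per the labels' protocols, the small RNA yield of the sorted cells was amplified with a single-cell kit. The authors deposited raw counts per gene symbol. Tools named are TopHat2, HTSeq and DESeq2, with the build GRCm38, per the submitters' processing notes. Versions, annotation and settings were not given in the sources used here. Besides genes there are 5 HTSeq summary entries, excluded from library sizes. Alignments outside any feature were 27.1% to 42.0% of all counts, and those that were not unique 24.3% to 31.1%.

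From the deposited counts, CPM were computed on gene totals, without further factors. The fit was a robust quasi-likelihood test in edgeR 4.0.16 under R 4.3.3 (TMM factors, filterByExpr with a minimum count of 10, 7858 genes, all 9 libraries, group as the only term), with Benjamini-Hochberg adjusted p over all genes and a threshold of 0.05. Only the edgeR fit of anti-PD-1 against controls was tested on simulated data. The DESeq2 fits and the counts of genes near 0 were not. DESeq2 1.42.0 was an alternative, with RLE factors, library totals, other filters, fits of 2 groups, the replicate number as a block and each library left out. The TMM factor was 0.403 for anti-CTLA-4 replicate 2 and 0.833 for anti-PD-1 replicate 2; the 7 others had 1.06 to 1.26. Standard errors were derived from the F statistic and are approximate. Each library is 1 mouse, so p-values measure the spread between libraries, in which mouse, sorting and amplification cannot be told apart.

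The genes and lists were chosen with earlier results of these data known. Named were the 10 genes, their closest relatives fixed with the lists, any list member called, and the 8 genes of highest r, without pseudogenes, predicted genes, Rik clones or receptor segments. Other related genes were named after their values were seen. Exon lengths, positions and neighbours come from GENCODE M21 (GRCm38), and promoters from RefSeq. Counts for 1 of the 10 lists on its own are not reported here.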

Additional observations from a re-analysis of the deposited data

How the results depend on the processing

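None of the 10 genes was called for anti-PD-1 against controls under any of 17 alternatives. For the related genes in that contrast the count of 0 rose to 1 with DESeq2. For anti-CTLA-4 against controls the 0 became 6 with DESeq2, and leaving out each replicate in turn gave 0 to 1. For anti-CTLA-4 against anti-PD-1 the count of 1, Plk1, became 13 with DESeq2, which gave Plk1 no adjusted p. It became 0 with at least 5 CPM in 3 libraries and with only the 2 groups compared, where Plk1 was not among the genes tested, and 0 with RLE factors, with library totals only, with the replicate block, and without the 2 libraries with the fewest genes (an alternative chosen after seeing the data); leave-one-out counts were 0 to 1. The cause was not tested. The 82 genes near 0 with anti-CTLA-4 became 32 when present meant 20 CPM (7 of the 10 genes among them) and 173 without the 2 libraries with the fewest genes, and 107 to 279 with 1 library left out. The 29 genes near 0 with anti-PD-1 became 11, 109, and 41 to 96 in the same order. The 3 genes near 0 in controls became 0, 39, and 5 to 16, and 5 with near 0 set at 2 CPM. Fewer libraries ask for fewer low and high values, so counts rise by construction. No pairing by replicate number was seen. Deviations of same-numbered libraries correlated at -0.04 to 0.02 and those of other numbers at -0.03 to 0.03. Of 9 libraries, 2 correlated best with their own number. With all values this close to 0, the check could miss a pairing. With the replicate block, 0 related genes were called in each contrast and 0 of the 10 genes. Amplification from little RNA and 3 mice a group limit all values.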
